A study of Mus musculus with 6 samples.

Results

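Mitochondrial ribosomal proteins were examined in fully grown mouse oocytes with and without normal Marf1. The members are the genes whose symbols begin with Mrpl or Mrps followed by a number, the large-subunit and small-subunit names, and were chosen by symbol alone from probe sets that the platform annotation gives to 1 gene. There were 77 of them among 19938 genes on the array, 48 named Mrpl and 29 named Mrps. All 77 were tested, since no filter on low values was applied. Mrpl53 shares its probe set with Ccdc142 and is not a member by this rule.

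There were 3 wild-type (Marf1+/+) and 3 mutant (Marf1 ENU/ENU, a chemically induced change on both copies) samples, 1 array each, with C57BL/6J;C3HeB/FeJ given as the strain of all of them. All females were 23 days old and had received 5 IU of eCG, a gonadotropin that drives follicle growth, 46 hours before collection. The oocytes had been stripped of their cumulus cells and were at the germinal-vesicle stage. Whether transcription had stopped in all of them was not tested. Nothing in the labels ties each sample to its own females, and the spread behind every p-value below may therefore be partly or wholly technical.

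The mitochondrial ribosome, or mitoribosome, translates the few proteins that the mitochondrial genome encodes, all of them parts of the respiratory chain and ATP synthase. Its RNA is made inside the mitochondrion, while all of its proteins are encoded in the nucleus and imported. Some of them descend from bacterial ribosomal proteins and others exist only in mitochondria. An oocyte holds a very large stock of mitochondria, which the early embryo inherits, and in humans changes in MRPS22 and MRPL50 have been linked to early loss of ovarian function.

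The arrays read as oocytes. The median log2 expression of 14 measured oocyte markers, among them Gdf9, Bmp15 and the zona pellucida genes, was 10.4 to 10.7 in wild type and 10.3 to 10.6 in the mutant. Of these 14, Kit fell (log2 fold change -1.28, limma adjusted p = 0.00419) and 0 rose, also 0 at an unadjusted p under 0.05. For 16 measured cumulus and granulosa markers it was 4.42 to 4.79 and 4.30 to 4.75, close to the 95th percentile of olfactory and vomeronasal receptor genes (4.52), here called the receptor-gene level. Of those 16, Kitl (wild-type mean 3.72, mutant mean 5.66) and Nr5a2 (8.71 and 10.17) rose, and Ptgs2 (5.14 and 4.14) fell. Nr5a2 lay well above the receptor-gene level in both genotypes. The part of cumulus and granulosa cells in the results below was not tested. Marf1 itself was at 9.21, 9.16 and 9.31 in wild type and at 5.98, 6.40 and 6.16 in the mutant, 8.26-fold lower (limma adjusted p = 1.0e-04). Mutant replicate 3 stood apart from the other arrays, with correlations over probe sets of 0.95 to 0.973 with them. It also had the lowest value of the 6 arrays in 37 of the 77 members, and the share over all genes was not counted. The SD over all probe sets was 2.04 on this array and 2.14 to 2.20 on the others. Its oocyte-marker median was also the lowest. The median over the members was 7.29, 7.09 and 7.11 in wild type, 7.13 and 7.2 in mutant replicates 1 and 2, and 6.88 in mutant replicate 3. These values are relative within an array, so fewer copies per oocyte of many RNAs at once and a change in total RNA cannot be told apart.

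Most mitoribosomal genes did not pass the test, and those that did went both ways. Against wild type, 7 members rose in the mutant (Mrps26, Mrps34, Mrpl20, Mrpl50, Mrpl15, Mrpl41 and Mrpl17) and 4 fell (Mrps5, Mrpl34, Mrps31 and Mrpl39) at a limma adjusted p under 0.05. The rises reached 4.38-fold for Mrps26, while the largest fall, of Mrpl39, was 1.90-fold. At least 2-fold changes were seen in 5 of the rises and in 0 of the falls, and the share over all genes was not counted at this cut. The 11 members make 14.3% of the 77. Among all genes 10.4% passed, 6.4% higher and 4.04% lower, and among the genes above the median level, where 76 of the 77 members lie, 19% passed, 11.6% higher and 7.39% lower. The members' share therefore lay between these backgrounds. Their median log2 fold change was -0.12 as deposited, beside -0.04 for all genes and -0.11 for genes above the median level, and it was 0.02 after cyclic loess normalization. With scaling changed, 8 rose and 5 fell after quantile normalization, 9 and 2 after cyclic loess, and 6 and 2 after median centring. Of all genes 6.83%, 7.76% and 5.27% rose and 5.38%, 2.64% and 2.43% fell under these scalings. The members' rises and falls numbered 5 and 0, 6 and 1, and 5 and 1 without wild-type replicates 1, 2 and 3. Of all genes 4.28%, 4.5% and 4.14% then rose and 1.04%, 1.71% and 0.998% fell. Without mutant replicates 1, 2 and 3 the members' counts were 4 and 2, 4 and 2, and 8 and 2. Of all genes 4.34%, 4.49% and 7.14% then rose and 1.89%, 1.86% and 3.09% fell.

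The 2 small-subunit members that rose belong to the part of the subunit that bacteria lack. Mrps26 (probe set 10476189) was at 5.71, 5.97 and 6.42 in wild type and at 8.25, 8.38 and 7.86 in the mutant. The 3 mutant values lay well above the wild-type range, and the log2 fold change was 2.13 (SE 0.22, limma adjusted p = 0.00147). Mrps34, without which the small subunit of mouse mitochondria is unstable, was at 5.06, 4.89 and 5.10 in wild type and at 6.95, 6.93 and 6.67 in the mutant. The replicates of each genotype lay within a narrow band, and the log2 fold change was 1.83 (SE 0.15, limma adjusted p = 4.25e-04).

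In the large subunit, Mrpl20, the counterpart of a bacterial protein that binds ribosomal RNA early in assembly, was at 5.05, 5.01 and 4.97 in wild type and at 7.03, 6.60 and 6.11 in the mutant. The mutant arrays were spread more widely (SD 0.46) than the wild-type ones (SD 0.04), and the log2 fold change was 1.57 (SE 0.23, limma adjusted p = 0.0062). Mrpl50, found only in mitochondria, went from 6.56, 6.85 and 6.40 to 8.01, 8.33 and 7.76, a log2 fold change of 1.43 (SE 0.20, limma adjusted p = 0.0046). Mrpl15 and Mrpl17, both with bacterial counterparts, rose by less. Mrpl15 went from 5.50, 5.69 and 6.21 to 6.94, 6.72 and 6.81 (log2 fold change 1.02, SE 0.20, limma adjusted p = 0.0227). Mrpl17 went from 5.70, 5.93 and 5.92 to 6.52, 6.83 and 6.46 (0.75, SE 0.16, limma adjusted p = 0.028). Mrpl41, found only in mitochondria, went from 8.15, 8.60 and 8.42 to 9.31, 9.48 and 9.17 (0.93, SE 0.17, limma adjusted p = 0.0158). In 6 of the 7 rises mutant replicate 3 was the lowest of the mutant arrays, and in Mrpl15 it was the middle one. The wild-type means of the 7 lay between 5.01 and 8.39, all above the receptor-gene level. Over the fits without 1 array, the adjusted p in limma stayed at or under 0.0322 for Mrps26, Mrps34, Mrpl20 and Mrpl50. Mrpl15 did not pass without wild-type replicates 1 (0.0819) or 2 (0.0821) or mutant replicates 1 (0.0788) or 2 (0.056). Mrpl41 did not without wild-type replicates 1 (0.0628) or 3 (0.0628) or mutant replicates 1 (0.055) or 2 (0.0573). Mrpl17 passed only without mutant replicate 3, and was at 0.0686 to 0.113 without any 1 of the others.

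The 4 falls were of similar size. Mrpl39, a mitochondria-specific large-subunit protein, went from 9.63, 9.49 and 9.44 in wild type to 8.57, 8.84 and 8.37 in the mutant (log2 fold change -0.93, SE 0.16, limma adjusted p = 0.014). Mrps31, a mitochondria-specific small-subunit protein, went from 7.83, 8.07 and 7.93 to 7.43, 7.01 and 6.88 (-0.84, SE 0.18, limma adjusted p = 0.0304). Mrpl34, the counterpart of a small bacterial protein bound to ribosomal RNA, went from 7.69, 7.34 and 7.87 to 6.97, 6.88 and 6.59 (-0.82, SE 0.19, limma adjusted p = 0.038). Mrps5, whose bacterial counterpart helps to keep decoding accurate, went from 7.11, 7.28 and 7.06 to 6.43, 6.38 and 6.23 (-0.80, SE 0.14, limma adjusted p = 0.013). In all 4 the groups did not overlap, and mutant replicate 3 was the lowest of the 6 arrays. Without that array Mrps31 (limma adjusted p = 0.0579) and Mrpl34 (0.0744) no longer passed, while Mrpl39 (0.024) and Mrps5 (0.024) did. Each of the 4 also depended on other arrays. Mrpl39 did not pass without wild-type replicates 1, 2 or 3 or mutant replicate 1 (0.0501 to 0.0655), and Mrps5 without wild-type replicates 1 (0.0533) or 2 (0.0561). Mrpl34 passed only without wild-type replicate 2 (0.0382), and Mrps31 only without mutant replicate 1 (0.0225).

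**Figure D1:**
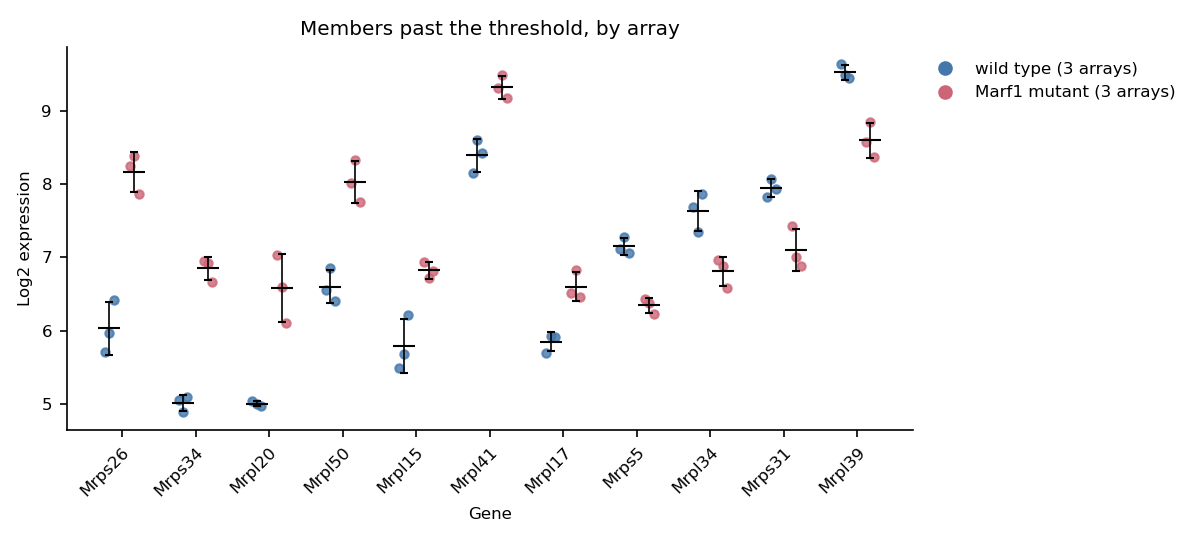
Log2 expression of the 11 mitochondrial ribosomal protein genes past the threshold, on the 3 wild-type arrays (blue) and the 3 Marf1-mutant arrays (red). Each point is 1 array and bars give the mean and SD. In each gene the points of the genotypes do not overlap, and the smallest gap between them is 0.37, in Mrpl34.

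The sets that did not overlap were more numerous than the calls. All 3 mutant values lay above the wild-type values in 13 members and below them in 23, together 46.8% of the 77. For all genes the share was 30.7%, 12.9% above and 17.7% below, and for genes above the median level it was 47.9%, 19.6% above and 28.3% below. Of these members 6 above and 19 below did not pass the test. At an unadjusted p under 0.05 there were 14 members higher and 18 lower. Among all genes 11% were higher and 13.5% lower at that level, and among genes above the median level 18.2% and 23.4%, close to the members' shares.

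The called members were spread over both subunits. Of 26 small-subunit members 2 rose and 2 fell, with a median log2 fold change of -0.175, and of 50 large-subunit members 5 rose and 2 fell, with a median of -0.12. Mrps30 and Mrps18a are counted with the large subunit, where their proteins sit despite their names. Mrps36 is in neither count, since its protein is now known as part of the 2-oxoglutarate dehydrogenase complex. It had a log2 fold change of 0.28 (SE 0.27, limma adjusted p = 0.69). Of the 46 members with a bacterial homologue 3 rose and 2 fell, and of the 30 mitochondria-specific ones 4 rose and 2 fell, with medians of -0.12 and -0.15. Split further, 0 of the 16 conserved small-subunit genes rose (also 0 at an unadjusted p under 0.05 in limma) and Mrps5 alone fell. In the 10 mitochondria-specific small-subunit genes 2 rose and 1 fell. Beside these counts, 6.4% of all genes were higher and 4.04% lower, and of genes above the median level 11.6% and 7.39%. The groups are small, and the difference between them was not tested.

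**Figure D2:**
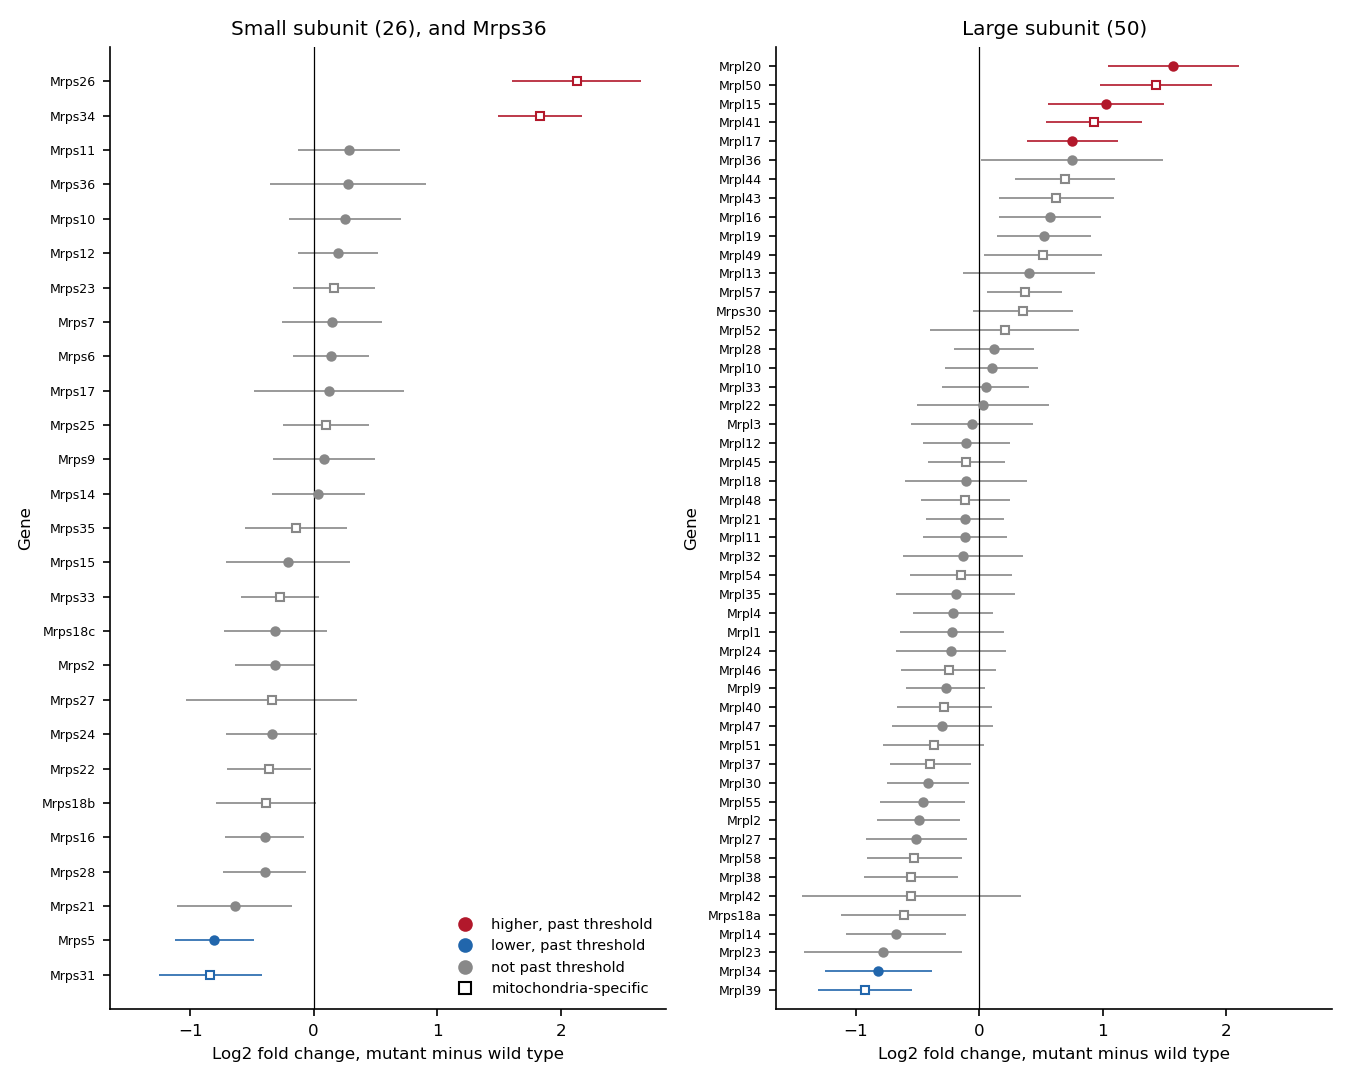
Log2 fold change (mutant minus wild type) of all 77 members with 95% confidence intervals from the limma fit, unadjusted for the number of genes, for the small subunit with Mrps36 (left) and the large subunit (right). Filled circles are genes with a bacterial homologue (and Mrps36), and open squares mitochondria-specific ones. Mrps26 and Mrps34 lie apart from the other small-subunit genes, while the large-subunit values run from -0.93 to 1.57, with Mrpl20 and Mrpl50 (1.43) above the next, Mrpl15 (1.02).

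Among the 66 members that did not pass, log2 fold changes ran from -0.78 to 0.75. Mrpl44, which resembles RNA-cutting enzymes and belongs to the large subunit, came nearest to the threshold. It was at 7.29, 6.83 and 6.76 in wild type and at 7.60, 7.73 and 7.63 in the mutant (0.69, SE 0.17, limma adjusted p = 0.0544). Without wild-type replicate 1 it passed (0.0353), as Mrpl43 did without wild-type replicate 2 (0.039) and Mrpl16 without mutant replicate 3 (0.0309). Next by size on the high side were Mrpl36 (0.75), Mrpl43 (0.62), Mrpl16 (0.57), Mrpl19 (0.52) and Mrpl49 (0.51), with adjusted p of 0.107 to 0.242. On the low side Mrpl23, which sits at the tunnel exit, had a log2 fold change of -0.78 (SE 0.28, limma adjusted p = 0.155). It was at 8.03, 7.41 and 7.59 in wild type and at 7.13, 7.23 and 6.32 in the mutant, so that mutant replicate 3 lay far below the other arrays. Mrpl14 had -0.68 (limma adjusted p = 0.0607), Mrps21 -0.64, Mrps18a -0.61, and Mrpl38 and Mrpl42 -0.55 each.

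Several members with well-studied roles did not pass. Mrpl12, a stalk protein also known to bind the mitochondrial RNA polymerase, was at 6.78, 7.09 and 6.89 in wild type and at 6.69, 6.78 and 6.97 in the mutant. Its log2 fold change was -0.11 with a 95% interval half-width of 0.35. For Mrps12, the counterpart of the bacterial decoding-site protein, the change was 0.20 with a half-width of 0.32, and for Mrpl45, which holds the ribosome at the inner membrane, -0.11 with 0.31. Mrps22 was at 10.11, 9.94 and 9.79 in wild type and at 9.61, 9.68 and 9.47 in the mutant. The groups did not overlap, but the change of -0.36 (SE 0.15) had an adjusted p of 0.222 in limma. Mrpl58, a peptidyl-tRNA hydrolase built into the large subunit, had -0.53 (SE 0.16, limma adjusted p = 0.112). For 57 of the 77 members the 95% interval lay wholly within a 2-fold change in either direction.

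Signals of different probe sets are not comparable as amounts of RNA. By signal the wild-type means of the members ran from 4.58 (Mrpl19) to 10.95 (Mrps33). Besides Mrpl19 the lowest signals were those of Mrpl20, Mrps34 and Mrpl43 (5.08). Besides Mrps33 the highest were those of Mrpl48 (10.2), Mrps18c (10.1) and Mrps22 (9.95). Of these 8 only Mrpl20 and Mrps34 passed. No member lay below the receptor-gene level in either genotype (0 of 77).

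For 8 members the array holds a second probe set, and some probe sets do not lie among their gene's neighbours. Probe set numbers follow the order of genes, so the 4 named probe sets on each side were compared with the gene's neighbours in RefSeq (within 5 Mb, at least 4 required). By this measure 8 of the 85 probe sets of the members lay elsewhere, beside 5.97% of all 21698 that could be placed. They belong to Mrpl23, Mrpl27, Mrpl41, Mrpl48, Mrpl51, Mrps5, Mrps33 and Mrps36. For Mrpl27, Mrpl41, Mrpl51, Mrps5 and Mrps33 the brighter probe set, which the rule takes, was the one elsewhere, and Mrpl48 had no other. Whether these probe sets read the named gene or a copy of it was not tested.

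This bears on 2 of the 11 calls. The probe set used for Mrpl41 (10561140) lies between Rpl37a and Nlrp9c on the array, while the other (10480579) lies between Arrdc1 and Noxa1, its neighbours in RefSeq. On the latter Mrpl41 was at 5.82, 6.07 and 5.89 in wild type and at 6.46, 6.39 and 6.09 in the mutant, a log2 fold change of 0.39 (SE 0.16, limma adjusted p = 0.221). The sign is the same on both probe sets, but only the one elsewhere passed. Mrps5 was at 5.88, 5.45 and 5.55 in wild type and at 4.99, 5.27 and 4.76 in the mutant on the probe set among its own neighbours (-0.62, SE 0.19, limma adjusted p = 0.101), which did not pass either. For Mrpl27 the change was -0.51 (SE 0.18) on the probe set elsewhere and -0.08 (SE 0.18) on its own. For Mrpl23, Mrpl47, Mrpl51, Mrps33 and Mrps36 both probe sets gave changes of the same sign and within 0.05 of each other. With only probe sets among their own neighbours, 6 of 76 members rose and 3 fell. Of all genes with such a probe set, 6.44% rose and 4.03% fell. This alternative was chosen after seeing the data.

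**Figure D3:**
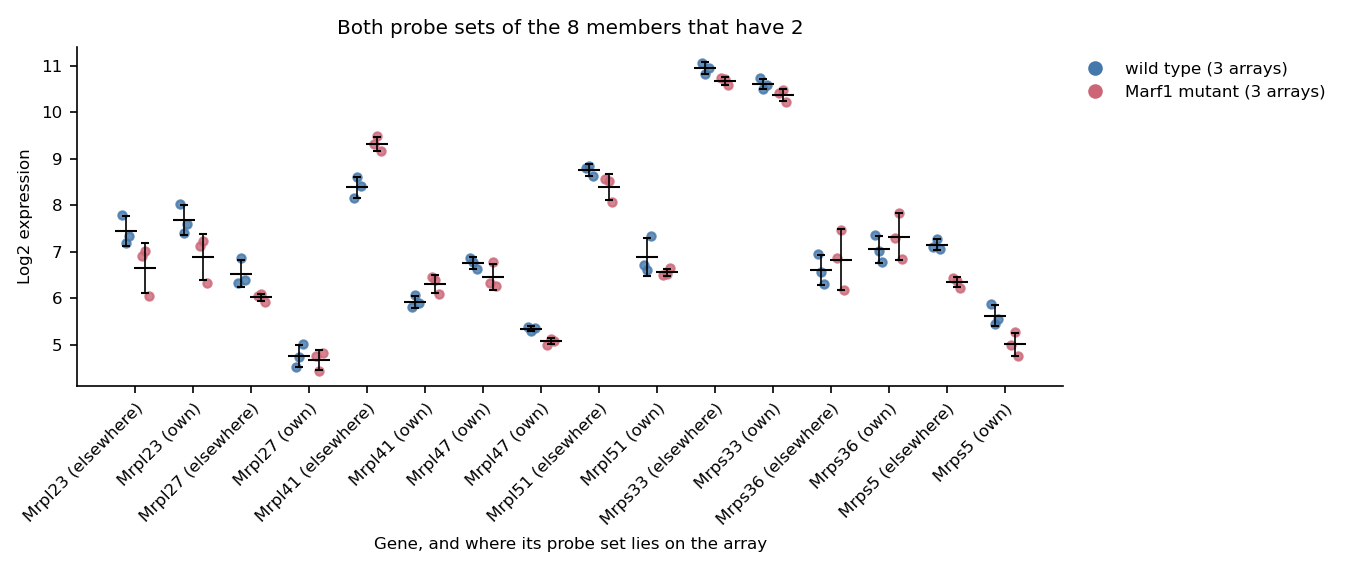
Log2 expression on both probe sets of the 8 members that have 2, on 3 wild-type (blue) and 3 mutant (red) arrays, with the mean and SD. "Own" marks a probe set lying among the gene's RefSeq neighbours and "elsewhere" one that does not, and Mrpl47 has both among its own. For Mrpl41 the separation of the genotypes is 0.93 on the probe set elsewhere and 0.39 on its own.

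The nuclear regulators known to drive mitochondrial genes rose in part. Of 10 measured, 3 rose and 0 fell (0 also at an unadjusted p under 0.05 in limma), with a median log2 fold change of 0.52. Among all genes 6.4% were higher and 4.04% lower, and among genes above the median level 11.6% and 7.39%. Gabpa, the DNA-binding subunit of GABP (also called NRF-2), was at 5.16, 5.00 and 5.29 in wild type and at 9.35, 9.14 and 8.85 in the mutant. The genotypes are far apart, with a log2 fold change of 3.96 (SE 0.17, 15.6-fold, limma adjusted p = 5.76e-05). Yy1, a zinc-finger factor, went from 5.52, 5.93 and 5.07 to 8.63, 8.13 and 8.03 (2.76, SE 0.26, limma adjusted p = 7.92e-04). The coactivator Ppargc1a rose by 1.26 (SE 0.20, limma adjusted p = 0.00897). Nrf1 had a log2 fold change of 0.55 (SE 0.20, limma adjusted p = 0.174), and Gabpb1, the partner of Gabpa, 0.29 (SE 0.21).

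The promoters of the members hold letters that these factors are known to bind. RefSeq (GRCm38.p6) promoter windows, 250 bases before to 50 after a start, were given for 68 of the 77 members, in 74 windows. The NRF-1 letters (GCGCA, any base, GCGC) were found in 17.6% of these windows and in 4.6% of all 32851, CCGGAAG (GABP and other ETS factors) in 33.8% and 8.86%, and ATGGCGG (YY1) in 16.2% and 4.05%, on both strands. The median GC content was 58.5% in the member windows and 52.7% in all. The YY1 letters include those of a start codon. Matches of different motifs did not overlap in the members' windows. Of 25 members with CCGGAAG 2 rose and 1 fell, with a median log2 fold change of -0.12, and of the 43 without it 3 rose and 3 fell, also with a median of -0.12. For the NRF-1 letters 2 of 13 rose and 1 fell (median -0.11), and for ATGGCGG 1 of 12 rose and 1 fell (median -0.29). A match is a description of the letters and no sign of binding. The motif letters were set after the expression values were known.

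The 250 bases before the start are shown for 2 members that rose (Mrps26, Mrpl17) and 2 that fell (Mrpl39, Mrpl34). They were chosen by motif and direction after their values were seen, and the part of the motifs in these changes was not tested. They lie at chr2:130563507-130563756 (plus strand), chr7:105811088-105811337 (minus), chr16:84735245-84735494 (minus) and chr8:71464676-71464925 (plus) of GRCm38.p6, are written 5′ to 3′ on the gene's strand, and carry the motif matches in capitals.
Mrps26: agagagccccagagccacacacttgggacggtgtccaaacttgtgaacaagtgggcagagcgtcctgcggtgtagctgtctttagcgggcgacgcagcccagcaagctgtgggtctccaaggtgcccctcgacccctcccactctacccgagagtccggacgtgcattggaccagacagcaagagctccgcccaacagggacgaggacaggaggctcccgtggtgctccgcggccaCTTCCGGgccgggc
Mrpl17: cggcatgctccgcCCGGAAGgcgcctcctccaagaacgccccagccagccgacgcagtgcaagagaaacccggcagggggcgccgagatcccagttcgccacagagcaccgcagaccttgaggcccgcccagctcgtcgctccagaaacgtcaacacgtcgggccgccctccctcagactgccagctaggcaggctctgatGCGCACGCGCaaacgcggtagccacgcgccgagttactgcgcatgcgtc
Mrpl39: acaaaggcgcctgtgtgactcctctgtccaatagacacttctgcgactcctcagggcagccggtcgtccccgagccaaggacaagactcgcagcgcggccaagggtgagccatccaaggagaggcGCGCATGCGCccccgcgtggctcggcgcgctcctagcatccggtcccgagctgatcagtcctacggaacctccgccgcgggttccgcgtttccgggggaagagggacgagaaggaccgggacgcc
Mrpl34: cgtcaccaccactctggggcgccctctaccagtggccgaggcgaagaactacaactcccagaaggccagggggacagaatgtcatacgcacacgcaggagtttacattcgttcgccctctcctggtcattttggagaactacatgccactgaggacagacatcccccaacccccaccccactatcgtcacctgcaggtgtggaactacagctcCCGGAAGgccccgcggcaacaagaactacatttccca
Mrps26 and Mrpl34 each carry the GABP letters close to the start, on opposite strands, at positions -14 to -8 and -37 to -31. Mrpl17 has them farther off (-237 to -231) and the NRF-1 letters at -49 to -40, and Mrpl39 has the NRF-1 letters at -125 to -116. Mrps26 also has NRF-1 letters that span the start or follow it, outside the stretch shown.

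Inside the mitochondrion, genes for copying and transcribing its DNA that passed were all higher. Of 12 measured, 3 rose and 0 fell (2 were lower at an unadjusted p under 0.05 in limma). Among all genes 6.4% were higher and 4.04% lower, and among genes above the median level 11.6% and 7.39%. Tfam, which packages mitochondrial DNA and starts its transcription, was at 6.13, 6.00 and 6.79 in wild type and at 9.58, 9.77 and 8.67 in the mutant (3.03, SE 0.33, 8.19-fold, limma adjusted p = 0.00162). The transcription elongation factor Tefm rose by 2.09 (SE 0.21) and Polg2, the accessory subunit of the DNA polymerase, by 1.44 (SE 0.21). The mitochondrial RNA polymerase, Polrmt, did not pass, with a difference of -0.30 (SE 0.13, limma adjusted p = 0.263). In RNA processing 2 of 15 rose and 2 fell, 13.3% each way. Trmt10c and Hsd17b10, which are subunits of mitochondrial RNase P, rose by 1.62 (SE 0.17) and 0.95 (SE 0.21). Prorp, the catalytic subunit of the same enzyme, did not pass, with -0.31 (SE 0.13, limma adjusted p = 0.253). Fastkd1 (-0.69) and the exonuclease Rexo2 (-0.71) fell. Over the fits without 1 array Trmt10c kept its call. Hsd17b10 did not pass without wild-type replicates 2 or 3 or mutant replicates 1 or 2 (limma adjusted p 0.107 to 0.132). Both falls passed only without mutant replicate 3, and otherwise had 0.0513 to 0.0892 for Rexo2 and 0.0567 to 0.106 for Fastkd1.

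Factors that build the mitoribosome were called in both directions. Of 28 assembly factors 4 rose and 1 fell, with a median log2 fold change of 0.04. This is 17.9% in all, beside 10.4% of all genes and 19% of genes above the median level. Mrm3, a methyltransferase of the large ribosomal RNA, was at 4.94, 4.62 and 4.71 in wild type and at 6.37, 6.23 and 6.23 in the mutant (1.52, SE 0.14, limma adjusted p = 8.87e-04). Mterf3 rose by 1.49 (SE 0.24), Eral1, which binds the small ribosomal RNA, by 1.06 (SE 0.13), and the methyltransferase Mrm2 by 0.83 (SE 0.14). Mrm2 did not pass without wild-type replicate 1 (limma adjusted p = 0.0592), wild-type replicate 3 (0.063) or mutant replicate 1 (0.0506). Afg3l2, a protease that matures Mrpl32, fell by 0.62 (SE 0.14, limma adjusted p = 0.0371). Its call was lost without any 1 of the 6 arrays. For Mrpl32 the change was -0.13 (SE 0.21).

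Of 18 genes listed as mitochondrial translation factors, 0 rose (0 also at an unadjusted p under 0.05 in limma) and 2 fell. The list also holds Mtg1, Lrpprc, Slirp and Mtg2, and Mtg2 is counted among the assembly factors too. The falls make 11.1%, beside 4.04% of all genes and 7.39% of genes above the median level. Gfm2, which recycles the ribosome after termination, was at 7.73, 7.16 and 7.33 in wild type and at 6.55, 6.52 and 5.99 in the mutant (-1.05, SE 0.22, limma adjusted p = 0.0268). It did not pass without wild-type replicates 1 or 3 or mutant replicates 1 or 2 (0.0535 to 0.0932). Gfm1, the elongation factor that moves the ribosome along, fell by 0.63 (SE 0.15, limma adjusted p = 0.0413) and lost the call without any 1 of the 6 arrays (0.0548 to 0.155). Mitoribosomal proteins whose symbols fall outside the Mrpl and Mrps names did not pass. Dap3 had -0.37, Ptcd3 -0.33, Chchd1 -0.09 and Gadd45gip1 0.14, with adjusted p in limma of 0.298 to 0.838.

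**Figure D4:**
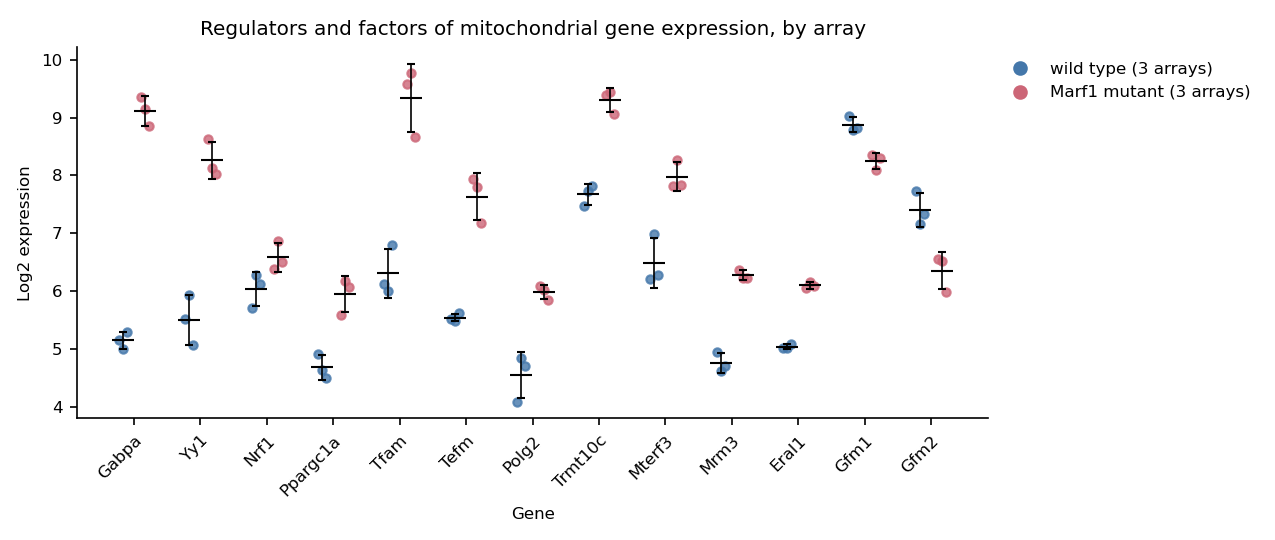
Log2 expression of 13 regulators and factors of mitochondrial gene expression on 3 wild-type (blue) and 3 mutant (red) arrays, with the mean and SD. Gabpa (3.96), Tfam (3.03) and Yy1 (2.76) show the widest separation, Nrf1 (0.55) did not pass the test, and Gfm1 and Gfm2 lie lower in the mutant.

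The nearest gene sets are given for comparison, and their difference from the mitochondrial ribosomal proteins was not tested. Of 61 cytosolic ribosomal protein genes 1 rose and 1 fell (3.28%, beside 10.4% of all genes), with a median log2 fold change of -0.08. The rise was that of Rpl9 (3.47, SE 0.21, 11.1-fold), on the brightest of its 8 probe sets. The fall was that of Rps4l (-0.80, SE 0.14). Of 78 subunits of the respiratory chain and ATP synthase, 4 rose and 3 fell (8.97%), with a median of -0.18. Over the fits without 1 array, the cytosolic set had 1 rise, or 4 without mutant replicate 3, and 0 to 1 falls. The respiratory set had 2 to 4 rises and 1 to 3 falls. Of all genes 4.14% to 7.14% rose over these fits, the most without mutant replicate 3, and 0.998% to 3.09% fell. The 4 rises of the respiratory set were Uqcrc1 (1.71), Cyc1 (1.26), Atp5g3 (1.11) and Uqcrb (0.97), and its 3 falls Cox6a2 (-0.98), Atp5g1 (-0.94) and Atp5e (-0.73).

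**Figure D5:**
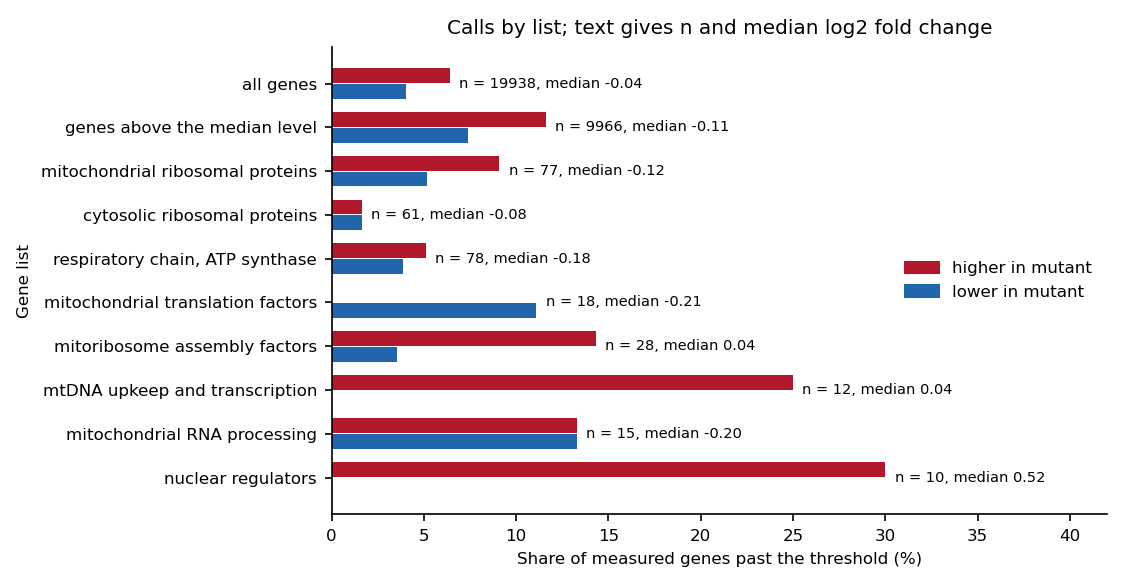
Share of measured genes past the threshold, higher (red) and lower (blue) in the mutant, for each gene list, with the number measured and the median log2 fold change beside the bars. The bars of the mitochondrial ribosomal proteins (9.09% and 5.19%) lie between those of all genes (6.4% and 4.04%) and of genes above the median level (11.6% and 7.39%).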

How the data were processed

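Per the labels' protocols, RNA was amplified, biotin-labelled and hybridised to 6 arrays. The authors deposited log2 expression values for 35556 rows, 1 per probe set, and the submitters' processing notes name GCOS, Affymetrix Expression Console 1.1 and RMA. No genome build is stated. The platform annotation gave 1 gene to 21789 rows. For the 999 of 19938 genes with several, the row with the highest mean was taken.

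All rows were fitted by genotype in limma 3.58.1 (R 4.3.3; lmFit, eBayes), two-sided, with Benjamini-Hochberg adjustment and a threshold of 0.05, after the code was tested on simulated data. The number of arrays limits the precision: 95% interval half-widths of the members were 0.30 to 0.89.

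The members and lists were chosen with earlier results of these data known. Lists were matched by symbol and described by counts and medians. Of 12 blood, immune, endothelial and theca markers 1 rose (Pdgfra, wild-type mean 4.22, mutant mean 4.89) and 1 fell (Pecam1, 7.27 and 6.20). Members named are those past the threshold, the 6 next in each direction, the 4 highest and lowest signals and those with several rows, and from each list up to 4 past the threshold. Others were named after their values were seen. Alternatives were other scalings, row choices and priors, a replicate block and leaving out each array.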

Additional observations from a re-analysis of the deposited data

How the results depend on the processing

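Under 15 other settings the 7 rises and 4 falls kept their direction in every case. Since the genotypes did not overlap in any of the 11, leaving out 1 array could not reverse a direction. Nor could a replicate block or another prior, so the kept direction is no check under these settings. Mrps26, Mrps34, Mrpl20 and Mrpl50 passed under all 15, and the other 7 lost the call under at least 3. Over the fits without 1 array, the number of members higher was 4 to 8, the number lower 0 to 2, and the median log2 fold change -0.193 to -0.035. Of all genes 4.14% to 7.14% were higher and 0.998% to 3.09% lower over these fits. The number of members lower was 2 after median centring, after cyclic loess normalization and with a replicate block, and 7 when fitted to rows above the median level. Of the genes fitted, 2.43%, 2.64%, 1.92% and 10.9% were lower under these settings. With 1 row per gene 9 members were lower and 11 higher, beside 7.59% and 8.57% of all genes. That setting changes both the number of rows adjusted over and the variance prior, and their parts were not tested. With the replicate block 6 were higher, and 8 of the 11 calls remained. Deviations from the genotype mean correlated at 0.174, -0.100 and 0.018 in same-numbered samples and at -0.237 to 0.215 in differently numbered ones. With 3 arrays per genotype these values cannot show whether the numbers pair samples. Of all genes 1431 passed with the block, against 2082 without it. Counts of the related lists moved in 94 of 360 comparisons and are small throughout. With 3 arrays per genotype, a member that did not pass may still differ.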
